A study of Macaca fascicularis with 12 samples.

Results

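IGSF10, IGSF21, ITM2A, ECRG4, CHODL, WFDC1, CRYM, PHYHIPL and TBC1D13 are 9 sparsely studied genes whose transcripts were lower in monkey iliac arteries with more atherosclerotic plaque. They were chosen by their probe values in these same arteries, by lower means in the medium or large group than in the small group or a negative slope on plaque area, out of 18160 gene symbols that the tested probes carry. Their lower values are therefore a description here and carry no test. All 9 were measured, each by exactly 1 probe that carries no other symbol, and all 9 symbols are in the macaque gene annotation. The choice did not use the contractile genes of smooth muscle, so whether the 9 genes vary with these among arteries of the same plaque group was examined. Variation within a group is not wholly separate from the choice, since the slope on area also uses it, and the relations are therefore given with plaque area as a further term as well.

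The arteries came from 12 untreated female cynomolgus monkeys over 20 years old, 1 artery and 1 array each. Every animal, those with little plaque included, had eaten a high fat diet for 8 years and been without ovaries for 4 years, so no healthy or intact animal is among them. The submitters sorted the arteries by plaque area. The 4 small arteries had 0 to 0.113 mm2, 2 of them no plaque, the 5 medium arteries had 0.3 to 0.542 mm2, and areas of 0.61 to 1.003 mm2 put 3 arteries in the large group. RNA from the artery tissue was hybridised to CodeLink arrays of human probes, and where the monkey transcript differs from the human probe the signal may be weaker. No probe's level is therefore set against another's.

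An artery wall is mostly smooth muscle that contracts, lined by endothelium, wrapped in fibroblasts, and invaded by macrophages as plaque forms. As background, smooth muscle cells that enter a plaque are known to lose contractile proteins. The 9 genes share no family. IGSF10 and IGSF21 encode proteins with immunoglobulin domains, the former secreted and linked to the migration of hormone-releasing neurons, the latter an organiser of inhibitory synapses that binds neurexin. ITM2A is a membrane protein with a BRICHOS domain, ECRG4 a secreted peptide precursor often silenced in tumours, and CHODL (chondrolectin) a membrane C-type lectin. WFDC1 is a secreted protein of the whey acidic protein (WAP) family that was described in prostate smooth muscle. CRYM (mu-crystallin) holds thyroid hormone in the cytosol, PHYHIPL is a relative of a protein that binds the phytanic acid enzyme PHYH, and TBC1D13 switches off the small GTPase RAB35.

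Levels are given as log2 intensity, on which a step of 1 is a doubling. The deposited intensities had been scaled so that the median probe of each array reads near 0 on this scale, and low values were raised to a floor of 0.111 on the linear scale. Over the 12 arteries ACTA2, the smooth muscle actin, read 7.40 to 9.38 and MYH11, the smooth muscle myosin, 8.16 to 9.59. Not every marker had a bright probe: that of CNN1, also a smooth muscle gene, had a mean of -0.31. The share of values at the floor was 3.92% to 5.43% on the small arrays and 5.20% to 6.50% on the others. The 99th percentile of intensity was highest on the array of small artery 1, at 195.8, against 114.2 to 147.6 on the others. Small artery 4 and medium artery 5 came from animals with identity numbers in a separate range from the rest, and the labels name no batch. The levels below keep their direction without these arteries.

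IGSF10 separated the groups by the widest margin. It read 3.83, 3.38, 3.06 and 3.18 in the 4 small arteries, -0.74, -0.39, -0.21, -0.61 and -0.57 in the 5 medium arteries, and 1.39, 0.06 and -1.01 in the 3 large ones. The lowest small artery stood 1.67 above the highest of the other 8, and the medium arteries lay within 0.524 of each other, whereas the large ones spanned 2.39. The medium mean was 14.6-fold and the large mean 9.26-fold below the small mean, with log2 differences of -3.86 ± 0.37 and -3.21 ± 0.42 (SE of a limma fit of 3 group means over 12 arteries).

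IGSF21 read 4.70, 4.66, 6.38 and 4.95 in the small arteries, 0.39, 2.49, 3.51, 2.23 and 1.48 in the medium, and 2.75, 2.24 and 0.89 in the large. All 4 small arteries again lay above all others, with small artery 3 the highest, but the medium arteries were spread over 3.11 log2 units. Its differences were -3.16 ± 0.60 in medium and -3.22 ± 0.68 in large against small.

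ITM2A read 6.46, 6.15, 5.80 and 6.13 in the small arteries. In the medium arteries it read 3.75, 5.22, 4.45, 2.65 and 2.65, and in the large 4.77, 4.78 and 4.19. The medium and large arteries all lay below the small ones, with medium arteries 4 and 5 the lowest. Differences from small were -2.39 ± 0.47 in medium and -1.56 ± 0.53 in large.

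ECRG4 read 2.96, 2.66, 2.96 and 3.19 in the small arteries, -0.39, 1.45, 1.86, 0.47 and 1.25 in the medium, and -0.38, 1.52 and 0.54 in the large. Medium artery 1 and large artery 1 were the low ones, and no artery of either group reached the small range. The differences were -2.01 ± 0.45 and -2.38 ± 0.51. CHODL showed the same separation from 2.14, 2.29, 1.78 and 1.75 in small to -1.76, -0.42, 0.55, -0.42 and 0.12 in medium and 0.21, 0.09 and -1.02 in large. Its differences were -2.38 ± 0.41 and -2.23 ± 0.47, and medium artery 1 was again the lowest.

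The probe of WFDC1 was a dim one, below the median probe on average. It read -0.18, -0.03, 0.27 and 0.70 in the small arteries, -2.21, -0.78, -0.31, -1.72 and -1.07 in the medium, and -1.78, -0.67 and -3.17 in the large. Large artery 3 is at the floor, so the difference of -2.06 ± 0.55 in large against small is understated, beside -1.41 ± 0.48 in medium. Only 0.138 parted the lowest small artery from the highest of the other 8.

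CRYM was nearly level in the small arteries, at 5.00, 5.27, 5.03 and 5.03, with an SD of 0.126 (n = 4). In the medium arteries it read 1.48, 4.28, 3.86, 2.01 and 2.16 (SD 1.23, n = 5), and in the large 2.12, 3.67 and 2.16 (SD 0.882, n = 3). Medium arteries 2 and 3 and large artery 2 thus read 3.67 to 4.28, and the other 5 arteries 1.48 to 2.16. The differences were -2.33 ± 0.55 and -2.43 ± 0.62.

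PHYHIPL and TBC1D13 had the smaller differences. PHYHIPL read 3.16 to 3.92 in small, 1.54 to 2.49 in medium and 1.64 to 2.49 in large arteries, with differences of -1.37 ± 0.25 and -1.54 ± 0.29. TBC1D13 read 3.46, 4.13, 4.73 and 4.67 in small, 2.52, 3.35, 3.61, 2.43 and 2.93 in medium, and 2.44, 3.44 and 2.50 in large, with differences of -1.28 ± 0.34 and -1.45 ± 0.39. It is the gene of the 9 whose groups overlapped, since small artery 1 lay below medium artery 3.

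**Figure D1:**
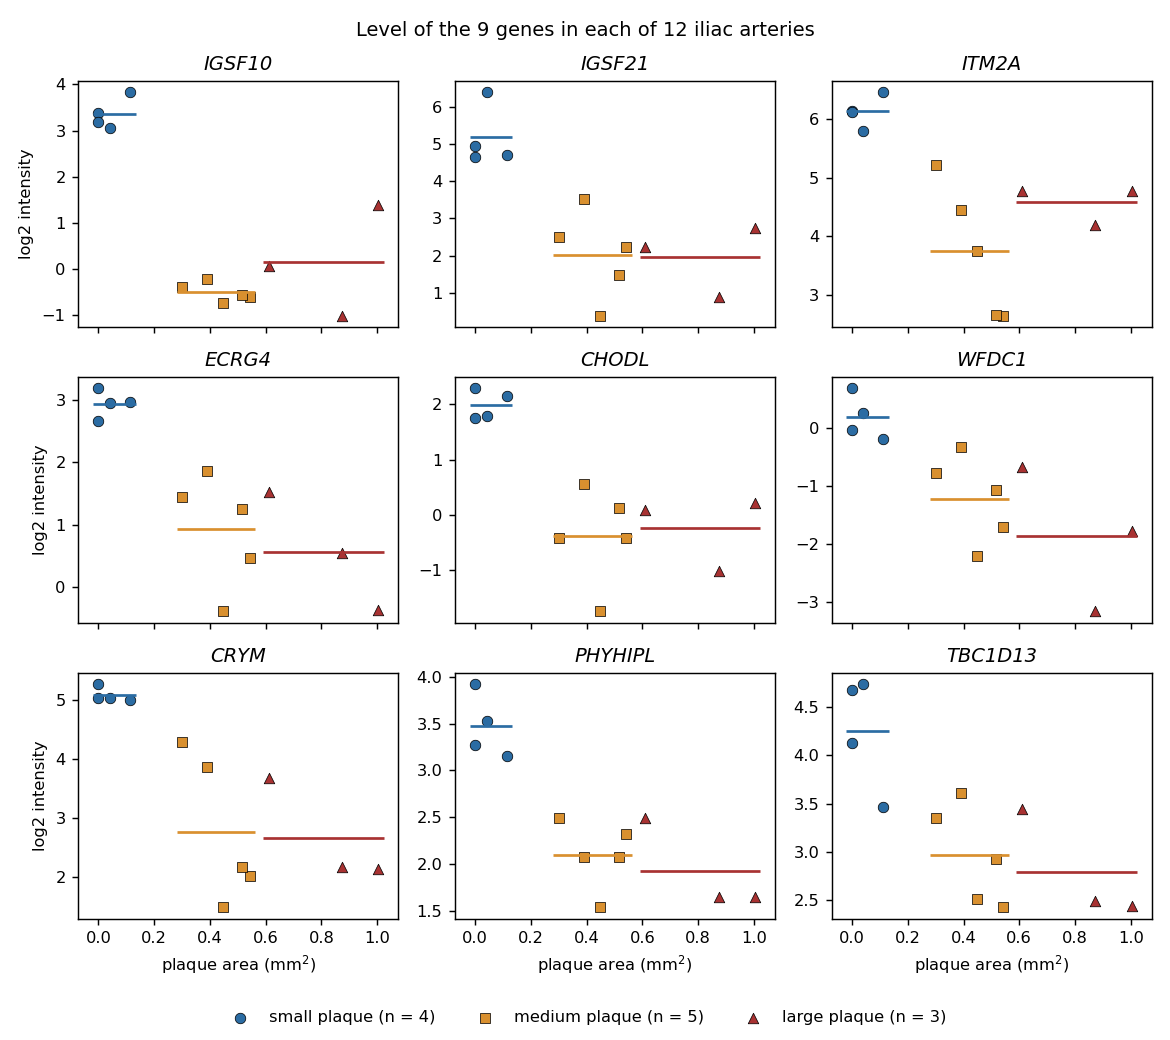
Log2 intensity of each of the 9 genes (vertical axes) against plaque area in mm2 (horizontal axes), 1 point per artery, with a line at each group mean. Small arteries lie above all 8 others for 8 of the genes, and TBC1D13 is the exception.

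Over all probes, 2.54% of the 53584 with a value on every array had every small artery above every medium and large artery, against 8 of the 9 genes, as their choice would give. At an adjusted p under 0.05 (limma, Benjamini-Hochberg over 53877 probes), 1.17% of all probes were called lower and 1.97% higher in medium than in small arteries, and 7 of the 9 genes were among the lower, all but WFDC1 and TBC1D13. In large against small, 0.197% of probes were lower and 0.948% higher, and IGSF10, IGSF21, ECRG4, CHODL and PHYHIPL were among the lower. The median difference of the 9 was -2.33 in medium and -2.23 in large, beside -0.09 and -0.10 over all probes. These contrasts chose the genes, so nothing further is read from the counts. In tissue RNA, fewer cells of a type and less RNA per cell cannot be told apart.

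No difference between large and medium arteries was resolved for these genes. Large minus medium had a median of -0.10 over the 9, and the 95% confidence interval included 0 for each. The highest differences were 0.84 for ITM2A (-0.27 to 1.94) and 0.65 for IGSF10 (-0.23 to 1.54), and the lowest was -0.65 for WFDC1 (-1.79 to 0.48). With 5 and 3 arteries the intervals are wide, and differences within them remain compatible with the data.

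The slope over all 12 arteries was negative for all 9 genes, from -3.99 ± 1.04 log2 units per mm2 for IGSF21 to -2.04 ± 0.37 for PHYHIPL. Among the 8 arteries with medium or large plaque it was -2.32 ± 1.10 for WFDC1, -1.97 ± 1.06 for ECRG4 and -1.21 ± 0.63 for TBC1D13, each with the lower values at larger areas. The same slope was 1.52 ± 0.95 for IGSF10, 0.36 ± 1.39 for ITM2A and 0.15 ± 1.09 for CHODL, of the opposite sign. That sign rests on large artery 1, the largest plaque. Without it the slope over the 7 other medium and large arteries was negative for all 9 genes, with -0.86 ± 0.73 for IGSF10, -0.96 ± 1.96 for ITM2A and -0.97 ± 1.53 for CHODL. Over all groups without that artery the slope of IGSF10 was -6.02 in place of -3.83, that of IGSF21 -5.67 in place of -3.99 and that of ITM2A -3.53 in place of -2.37.

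Arteries of the same group differed from one another in the same direction for most of the genes. Medium arteries 2 and 3 were each among the top 2 of the 5 medium arteries for 8 of the 9 genes, and medium artery 1 was the lowest for 7. Of the large arteries, number 2 was the highest for 6 genes and number 3 the lowest for 6. The high arteries were those with the smallest areas of their groups. Medium arteries 2 and 3 had 0.3 and 0.391 mm2 against 0.448 to 0.542 mm2 in the other medium arteries, and large artery 2 had 0.61 mm2 against 0.873 and 1.003 mm2. The place of these high arteries follows the gradient of area that helped to choose the genes. That of the low arteries does not. Medium artery 1 had 0.448 mm2, below the 0.542 mm2 of the largest medium plaque. Large artery 3 had 0.873 mm2 against 1.003 mm2 in large artery 1. The order within groups thus follows area only in part. After subtraction of group means, 33 of the 36 pairs of genes had a positive correlation over the 12 arteries, with a median r of 0.515 and 18 pairs over 0.5. ECRG4 and CRYM were the closest pair at r = 0.808. IGSF10 and ECRG4 had the lowest, at -0.143, and they part in large artery 1, where IGSF10 lay 1.24 above its group mean and ECRG4 0.94 below it. These correlations are descriptions over arrays that every gene shares.

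**Figure D2:**
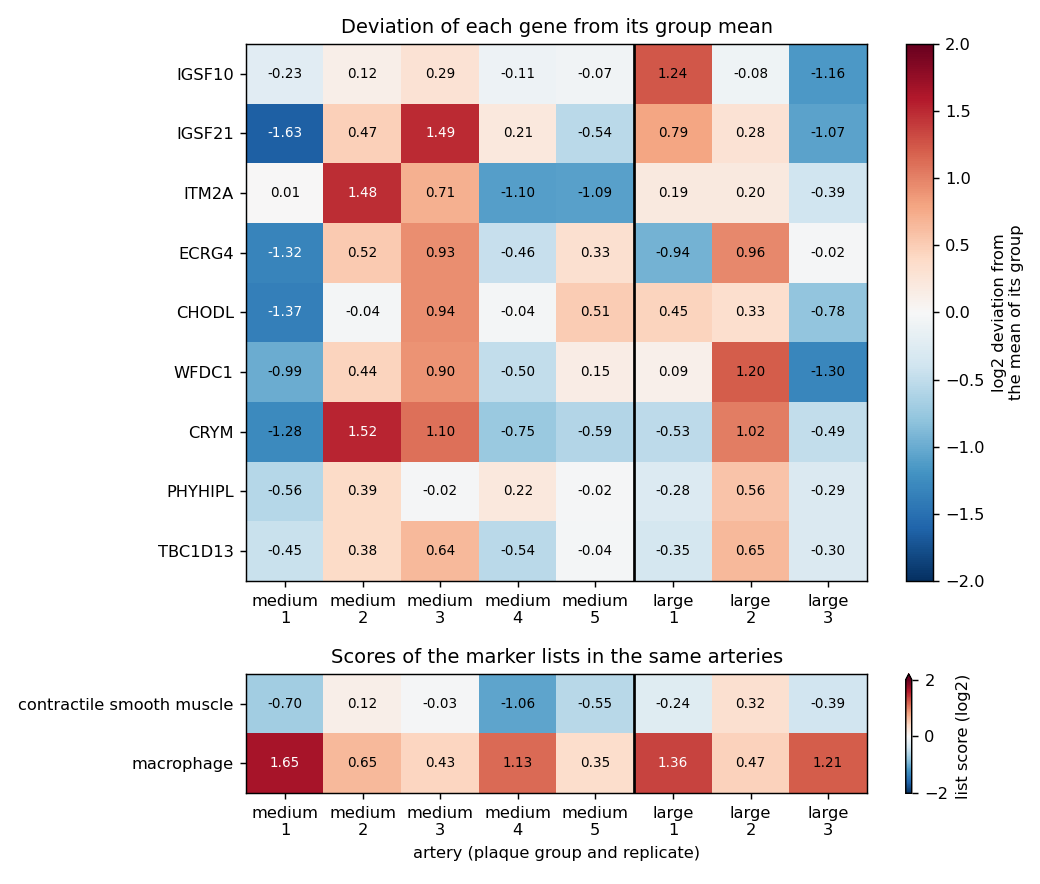
Upper panel, log2 deviation of each gene (rows) from the mean of its plaque group in the 5 medium and 3 large arteries (columns), and lower panel, the scores of the contractile and macrophage lists in the same arteries. Medium arteries 2 and 3 and large artery 2 are mostly above their group means, and medium artery 1 and large artery 3 mostly below.

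To ask whether the genes follow the contractile genes of smooth muscle, the contractile list was summarised as a score, the mean log2 level of its members after each was centred on its own mean. Of 16 listed genes 13 were measured by a probe of their own symbol, TAGLN, DES and MYOCD having none here. Against small arteries, MYLK (myosin light chain kinase) fell by 1.61 ± 0.27 in medium (limma adjusted p = 0.00900) and by 1.48 ± 0.31 in large (limma adjusted p = 0.0428). SMTN (smoothelin) fell by 2.39 ± 0.47 in medium (limma adjusted p = 0.0184) with a difference of -0.97 ± 0.53 in large (limma adjusted p = 0.398). The other 11 passed in neither comparison: MYH11 had -0.67 ± 0.18 in medium (limma adjusted p = 0.0657), CNN1 -1.13 ± 0.37 and ACTA2 -0.61 ± 0.37. Beside these calls, 1.17% of all probes were called lower in medium and 0.197% in large. The median over the 13 was -1.17 in medium and -0.84 in large.

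The contractile score ran from 0.38 to 0.89 in small arteries. It was -0.70, 0.12, -0.03, -1.06 and -0.55 in the medium arteries and -0.24, 0.32 and -0.39 in the large ones. Medium arteries 2 and 3 and large artery 2, in which CRYM was highest, had the highest scores of the 8. Medium artery 4 had the lowest score.

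Within plaque groups, CRYM had the steepest relation of the 9 to the contractile score. A limma fit with group means and the score as terms gave CRYM a coefficient of 1.99 ± 0.40 log2 units per unit of score (SE, 12 arteries, limma adjusted p over all probes = 0.439). ITM2A followed with 1.46 ± 0.43 (limma adjusted p = 0.683), WFDC1 with 1.38 ± 0.48 (limma adjusted p = 0.805) and ECRG4 with 1.29 ± 0.45 (limma adjusted p = 0.808). TBC1D13 had 0.91 ± 0.35 (limma adjusted p = 0.869) and IGSF21 1.38 ± 0.67 (limma adjusted p = 0.982). The coefficients of CHODL (0.70 ± 0.50), PHYHIPL (0.39 ± 0.31) and IGSF10 (0.34 ± 0.48) were within 1.5 SE of 0.

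All 9 coefficients were positive and 5 had an unadjusted p under 0.05, those of CRYM, ITM2A, WFDC1, ECRG4 and TBC1D13, while the median coefficient over all probes was -0.009 and 5.17% of probes (2786) had such a p. After adjustment limma called 0 of the 53877 probes (0%), the lowest adjusted p of any probe being 0.346, so none of the 9 relations passes the threshold of the whole table. Of all probes, 0.0520% had a higher coefficient than CRYM, 0.254% a higher one than ITM2A and 15.8% a higher one than IGSF10. The 9 genes vary together and are not 9 separate observations.

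With plaque area as a further term beside the group means, the coefficient of CRYM was 1.45 ± 0.50 (limma adjusted p = 0.835) and that of ITM2A 1.36 ± 0.60 (limma adjusted p = 0.945). IGSF21 had 2.02 ± 0.88 (limma adjusted p = 0.944), and these 3 were the genes with an unadjusted p under 0.05, beside 5.24% of all probes (2823). Those of ECRG4 at 0.84 ± 0.59, WFDC1 at 1.06 ± 0.65 and TBC1D13 at 0.42 ± 0.43 no longer had such a p. In this fit 8 of the 9 coefficients were positive, PHYHIPL being the exception at -0.016 ± 0.386, and limma again called 0 probes, with a lowest adjusted p of 0.496.

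Among the 8 arteries with medium or large plaque alone, ITM2A had the highest correlation with the score, r = 0.845 (exact permutation p = 0.00801, two-sided) and rho = 0.929 (exact p = 0.00223). Without medium artery 4 and large artery 2, whose scores lie farthest from the median, its r was 0.785 (exact permutation p = 0.0583, 6 arteries). CRYM had r = 0.827 (exact permutation p = 0.0122) and rho = 0.833 (exact p = 0.0154), and r = 0.932 without those arteries (exact permutation p = 0.00694). TBC1D13 had r = 0.780 (exact permutation p = 0.0277) and rho = 0.714 (exact p = 0.0576), and r = 0.701 without them (exact permutation p = 0.125).

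The r of the other 6 genes ran from 0.363 for IGSF10 to 0.575 for ECRG4, none with a p under 0.05. IGSF21 had 0.826 without the same arteries (exact permutation p = 0.0500) and PHYHIPL 0.714 (exact permutation p = 0.111). These are 9 of 36 relations computed with 4 marker scores, and the p-values are not adjusted for that. With a score from ACTA2, MYH11 and CNN1 alone, ITM2A had r = 0.611 (exact permutation p = 0.109). The contractile score itself had r = 0.464 with the 99th percentile of array intensity in these arteries (exact permutation p = 0.248), -0.251 without the arteries farthest from the median, and its part in the relations was not tested. With plaque area the score had r = -0.071 (exact permutation p = 0.866), and -0.233 without the arteries farthest from the median.

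**Figure D3:**
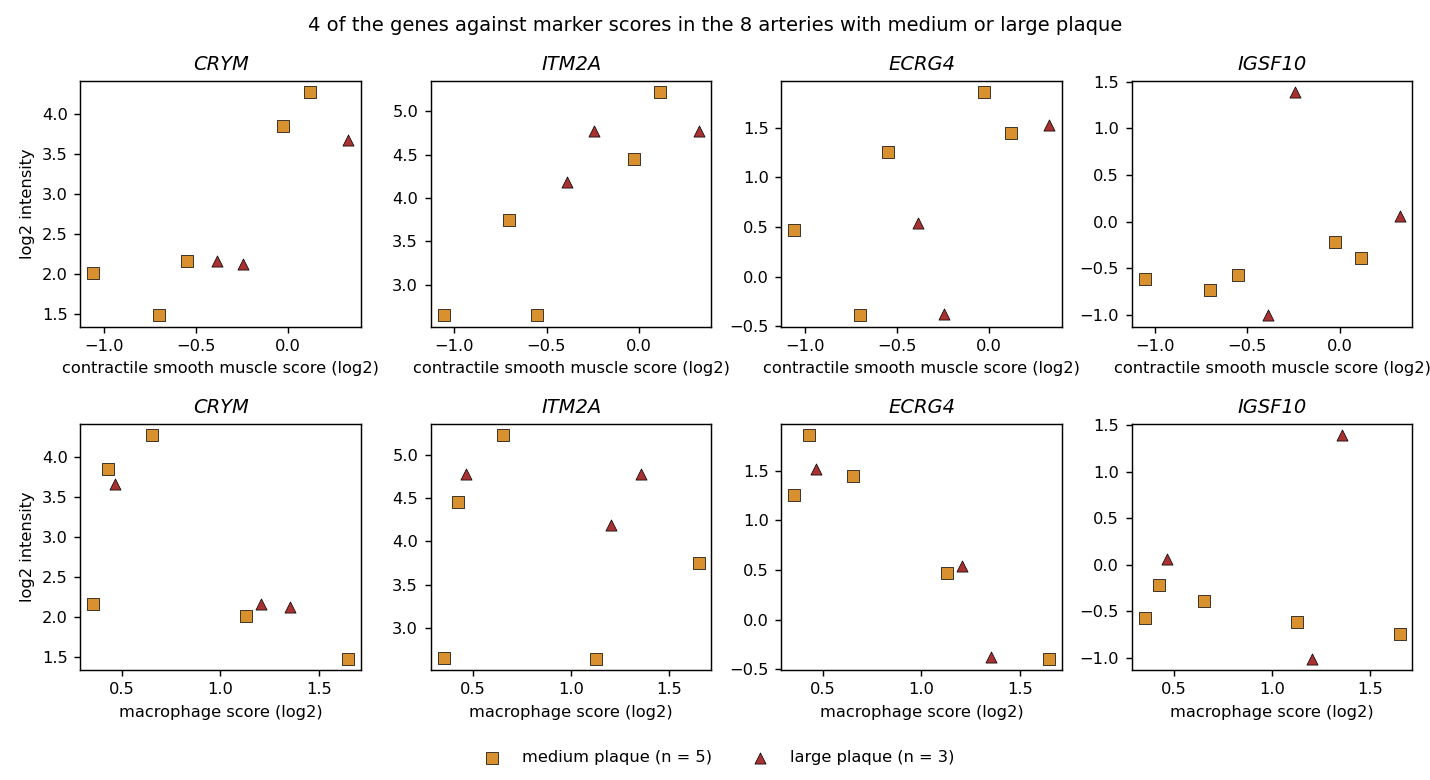
Log2 intensity of CRYM, ITM2A, ECRG4 and IGSF10 (vertical axes) against the contractile score (upper row) and the macrophage score (lower row) in the 5 medium and 3 large arteries. CRYM and ITM2A are highest where the contractile score is high, ECRG4 is lowest where the macrophage score is high, and IGSF10 has its highest value in large artery 1.

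Macrophage markers were higher in the arteries in which the 9 genes were lower. Of 12 listed, 10 were measured, of which 7 rose in medium and 6 in large arteries, with medians of 2.69 and 2.94. Beside these counts, 1.97% of all probes were called higher in medium and 0.948% in large. TYROBP, an adaptor of myeloid receptors, rose by 3.11 ± 0.29 in medium (limma adjusted p = 0.000360), whereas CD68 had -0.44 ± 0.45 (limma adjusted p = 0.648). The macrophage score was -2.40 to -1.41 in small, 0.35 to 1.65 in medium and 0.47 to 1.36 in large arteries. It thus parts small arteries from the rest without overlap, as 8 of the 9 genes do. The contractile score does so too, with 0.38 as its lowest value in small arteries and 0.32 as its highest in the others. The part of either score in the lower values of the 9 genes across groups was not tested.

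Over the 8 arteries with medium or large plaque, pooled without group means removed, ECRG4 had the closest relation to the macrophage score. Its r was -0.943 (exact permutation p = 0.00176) and its rho -0.833 (exact p = 0.0154). With medium arteries 1 and 5 left out, its r was -0.964 (exact permutation p = 0.00278). TBC1D13 had -0.831 (exact permutation p = 0.0216), WFDC1 -0.789 (exact permutation p = 0.0193) and CHODL -0.724 (exact permutation p = 0.0380). Without medium arteries 1 and 5, TBC1D13 had -0.978, WFDC1 -0.834 and CHODL -0.469 (exact permutation p = 0.332). ITM2A at -0.061 and IGSF10 at 0.048 had the values of r nearest to 0.

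In the limma fit with group means as terms over all 12 arteries, 8 of the 9 coefficients of the macrophage score were negative. Of the 9, 6 had an unadjusted limma p under 0.05, those of ECRG4, CHODL, WFDC1, CRYM, PHYHIPL and TBC1D13, beside 5.07% of all probes (2730). ECRG4 had -1.14 ± 0.33 (limma adjusted p = 0.939) and CRYM -1.23 ± 0.44 (limma adjusted p = 0.953). Again 0% of the probes passed after adjustment, with a lowest adjusted p of 0.563. The contractile and macrophage scores had r = -0.540 between them in the 8 arteries (exact permutation p = 0.166), and how far each relation holds apart from the other score was not tested. The macrophage score had r = 0.430 with plaque area in these arteries (exact permutation p = 0.295), and 0.769 without the arteries farthest from the median. With area as a further term, CHODL had -1.28 ± 0.35 and ECRG4 -0.85 ± 0.38 (both with a limma adjusted p of 1.00), the only ones of the 9 with an unadjusted p under 0.05, while CRYM had -0.67 ± 0.43 and ITM2A 0.40 ± 0.51. That share stands beside 4.46% of all probes (2402), with 0 called by limma. Among the 18 relations with endothelium and fibroblast scores none had a p under 0.05 over the 8 arteries. Without medium arteries 2 and 4, IGSF10 had r = 0.897 with the endothelium score (exact permutation p = 0.0222, 6 arteries), against 0.363 with them. In the limma fit over 12 arteries ITM2A had an endothelium coefficient of -6.41 ± 2.77 (limma adjusted p = 1.00), with an unadjusted p under 0.05, on a score that ran only from -0.17 to 0.04 in the medium arteries.

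**Figure D4:**
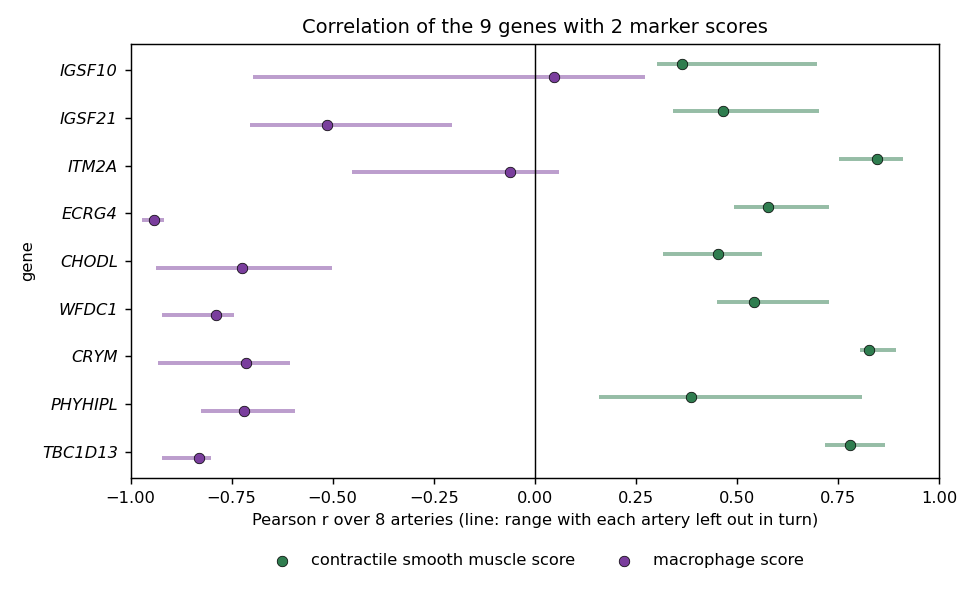
Pearson r of each gene with the contractile score (green) and the macrophage score (purple) over the 8 arteries with medium or large plaque, with lines for the range when each artery is left out in turn. All 9 contractile values lie above 0, from 0.363 to 0.845, and the macrophage values run from -0.943 for ECRG4 to 0.048 for IGSF10.

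Other cell types were followed by the same kind of list. No member passed among 9 measured endothelial, 8 fibroblast, 5 pericyte, 4 Schwann cell, 4 adipocyte and 3 T cell markers. The shares of all probes called were 1.17% lower and 1.97% higher in medium, and 0.197% lower and 0.948% higher in large. At such low shares the absence of a call among so few markers says little about these cell types. Of 5 measured skeletal muscle markers TNNT3, a fast muscle troponin, fell by 0.68 ± 0.16 in medium (limma adjusted p = 0.0460). The skeletal muscle score was -0.22 to 1.32 in small, -0.66 to 0.05 in medium and -1.05 to 0.20 in large arteries, and its part in the lower values of the 9 genes was not tested. The pericyte score was 0.20 to 0.48 in small, -0.88 to 0.30 in medium and -0.35 to 0.35 in large arteries. Among the medium and large arteries it was highest in large artery 2 and medium artery 2. It was lowest in medium artery 4, and the contractile score had the same extremes. The relation of the 9 genes to the pericyte score was not tested, so following contractile genes is not shown to be particular to these.

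Relatives and partners of the 9 genes by family or pathway mostly did not pass the test. Of 77 listed 63 were measured: 3 fell and 2 rose in medium, and 1 rose and 0 fell in large against small. These counts stand beside the shares of all probes called, 1.17% lower and 1.97% higher in medium. In large against small the shares were 0.197% lower and 0.948% higher. At so low a share, the absence of a lower call among the 63 in large says little about them.

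Of 8 measured relatives of IGSF10 and IGSF21 and their neurexin and neuroligin partners, IGSF1 fell by 1.39 ± 0.29 in medium (limma adjusted p = 0.0263) and had -1.33 ± 0.34 in large (limma adjusted p = 0.0777). IGSF1 is a membrane glycoprotein of the pituitary whose loss causes central hypothyroidism. The neurexin NRXN2 had -0.07 ± 0.28 in medium and -0.37 ± 0.31 in large. None of 6 other BRICHOS proteins passed. ITM2B, the nearest relative of ITM2A together with ITM2C, had 0.03 ± 0.17 in medium and 0.29 ± 0.20 in large, and ITM2C -0.72 ± 0.22 and -0.62 ± 0.25. The tendon protein TNMD had -3.46 ± 0.86 in medium (limma adjusted p = 0.0523). None of 5 C-type lectins and none of 9 WAP domain proteins passed. The nearest were CLEC1A at 0.66 ± 0.37 (limma adjusted p = 0.379) and WFDC3 at -0.62 ± 0.24 (limma adjusted p = 0.197) in medium.

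Of 13 measured genes of thyroid hormone action, the pathway of CRYM, 1 fell and 1 rose in medium. THRA, the thyroid hormone receptor alpha, fell by 1.34 ± 0.29 (limma adjusted p = 0.0278) and had -0.58 ± 0.33 in large (limma adjusted p = 0.411). SLC16A10, a carrier of aromatic amino acids and thyroid hormone, rose by 2.68 ± 0.56 in medium (limma adjusted p = 0.0241) and had 2.22 ± 0.63 in large (limma adjusted p = 0.114). The dimmer of its 2 probes had 1.17 in medium (limma adjusted p = 0.0647). Of 6 phytanic acid genes PHYH, the oxygenase that opens phytanic acid breakdown, fell by 1.13 ± 0.24 in medium (limma adjusted p = 0.0260). PHYHIP, the closest relative of PHYHIPL, had -0.44 ± 0.14 (limma adjusted p = 0.115).

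Of 16 genes around RAB35 and glucose transporter traffic, DENND1C, an activator of RAB35 and so the counterpart of TBC1D13, rose by 2.59 ± 0.42 in medium (limma adjusted p = 0.00726) and by 2.33 ± 0.48 in large (limma adjusted p = 0.0412). A second, slightly dimmer probe of TBC1D1, a GTPase-activating protein of glucose transporter traffic, was called higher in medium by 1.60 (limma adjusted p = 0.0243), whereas the probe that represents it had 0.05 ± 0.28 (limma adjusted p = 0.947). The count of related genes that rose thus depends on the probe chosen. RAB35 itself had 0.33 ± 0.18 in medium and 0.34 ± 0.21 in large. The calls in medium were lost under 8 of 21 alternative settings for IGSF1 and THRA, 6 for SLC16A10, 9 for PHYH and 1 for DENND1C, and the call of DENND1C in large under 10 of 21.

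**Figure D5:**
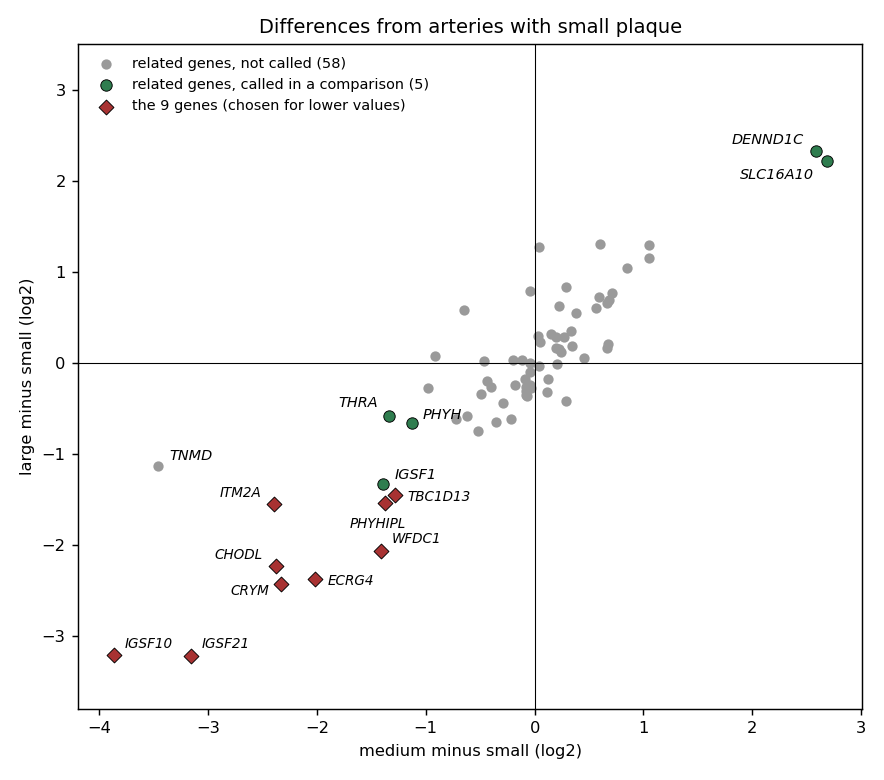
Medium minus small (horizontal axis) against large minus small (vertical axis) in log2 units, 1 point per gene. The 9 genes were chosen for lower values and lie at the lower left, while 58 of the 63 related genes were called in neither comparison, both comparisons sharing the same 4 small arteries.

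The genes whose variation within groups was most like that of each member were found among 11227 genes with probes brighter than the median probe, by Pearson r of deviations from group means over 12 arteries. ITM2A was nearest to LDB3, a Z-disc protein of striated muscle (r = 0.961), then EMP2 (0.927) and PLCL1 (0.925). ECRG4 was nearest to MTFR1 (0.957), then TNNC1, the troponin C of slow and cardiac muscle (0.933), and PEG10 (0.917). CHODL was nearest to IGSF1 (0.935), the gene that was also called lower in medium arteries. TBC1D13 lay nearest to TNRC6C (0.978) and GNL1 (0.956), with ADAMTS9, a matrix protease, in the third place (0.954).

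CRYM was nearest to ZNF620 (0.959), NIM1K (0.955) and SGK2 (0.950), and WFDC1 to ENC1 (0.939), NUTM1 (0.917) and ADAMTS8 (0.914). IGSF21 was nearest to PCDHB13 (0.940), a protocadherin, and PHYHIPL to FAM136A (0.917). The nearest gene to IGSF10 was GATC at 0.897, the lowest of the 9 top values, followed at 0.863 by LINC03152 and by RARB, a retinoic acid receptor. None of these 27 nearest genes is a member or on the contractile list. So few of the genes compared are either that this absence says little. WFDC1, whose probe lies below the median probe, could not appear. With 12 arteries and so many genes compared, high values of r are to be expected for some, and these are descriptions only.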

How the data were processed

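Per the labels' protocols, total RNA of each artery was amplified to biotinylated cRNA and hybridised to 1 CodeLink human array with a single dye. The authors deposited linear intensities per probe, which lie near 1 at the median of each array and in part below 0, so they had been scaled and background had been subtracted. How both were done is not given in the sources used here. Of 54359 probes 479 were empty. Tested were the 53877 measured in 2 or more animals of every group, 293 of which lacked a value on some array.

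Deposited intensities below 0.111, the 5th percentile of positive values (5.45% of values), were set to it, and log2 was taken with no further normalization. Names came from the platform annotation, which can be old: 23267 probes had 1 symbol, 900 several and 29710 none here. The macaque assembly T2T-MFA8v1.1 served for names only, and no sequence was read.

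Group differences came from limma version 3.58.1 in R version 4.3.3 (lmFit with 3 group means over 12 arrays, eBayes, Benjamini-Hochberg, threshold 0.05), checked on simulated data. The score fits added a list score to the group means. Correlations used exact permutation of the 8 arteries in Python version 3.11.15 with scipy version 1.17.1. P-values are two-sided. Replicates were separate animals, whose number limits the precision.

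The 9 genes, the marker and related lists, the tests and the naming rule were chosen with earlier results of these data known. Named were all 9 genes, the contractile genes ACTA2, MYH11, CNN1, SMTN and MYLK, the called members of each related list or else the 2 of smallest p, and 3 nearest genes per member, of which the text gives part. TYROBP, CD68, TNNT3, NRXN2, ITM2B, TBC1D1, PHYHIP and RAB35 were named after their values were seen. A gene was represented by its brightest probe with values on every array. Alternatives covered normalization, the floor, missing and dim probes, the variance model, array weights, the replicate number as a block, the makeup of the score, the scale of area and each artery left out. The fit of the macrophage score, and plaque area as a further term in both score fits, were added after seeing the data.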

Additional observations from a re-analysis of the deposited data

Results flagged for a closer look

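CRYM in the small group had a single artery apart from the rest. Small artery 2 read 5.27 against 5.03 for the next, a gap that made up 0.875 of the range of the 4 arteries, above Dixon's 95% critical value. The gap is small beside the difference between groups. Of 26 groups of 4 or 5 arteries examined in this way it was the only 1, and chance gives such a result in about 1 of 20 groups.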

How the results depend on the processing

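All 9 genes kept negative differences in both comparisons against small under every alternative run. From 7 to 9 of them had all small arteries above the others, 7 where WFDC1 dropped out with the dim probes. The number of probes called in medium against small, 1693, became 866 with the replicate number as a block, 773 without the pair of animals numbered apart, and 847 to 1567 with each artery left out, the lowest without small artery 2. For large against small, 617 became 1397 with bright probes alone, 1338 with array weights, 1107 with a variance trend, 448 with the replicate block and 316 without that pair. Leaving out each artery gave 112 (without large artery 3) to 1216 (without small artery 1), with 132 without large artery 1 and 261 without small artery 2. No clear pairing of animals by replicate number was seen, though so few pairs, which share arrays, cannot exclude one. The correlation of same-numbered arrays' deviations had a median of 0.0824 over 10 pairs (-0.159 to 0.216). Over 37 others it was -0.0228 (-0.203 to 0.228).

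The score fits called 0 probes under all 25 alternatives for the contractile and 23 for the macrophage score. The IGSF10 coefficient of the contractile score, 0.34, ran from -0.021 (without large artery 3) to 0.54 (without large artery 1) with each artery left out, and was 0.90 with the replicate block, 0.15 after quantile normalization and 1.07 with plaque area as a term. That of PHYHIPL, 0.39, was -0.016 with area as a term. The IGSF10 macrophage coefficient, 0.03, was -0.21 with area as a term, -0.049 in medium and large arteries alone, -0.039 after quantile normalization, -1.84 with the replicate block, -0.097 without small artery 1, -0.29 without large artery 1 and -0.0024 without large artery 2, with 0.22 as the highest, without medium artery 1. That of ITM2A, -0.16, was 0.0010, 0.0094 and 0.022 without medium arteries 2, 3 and 4, -0.54 without medium artery 5, and 0.40 with area as a term. The causes were not tested. The r of ITM2A and TBC1D13 with the contractile score passed 0.05 no longer under 2 and 4 of 11 alternatives, that of CRYM under none. Each member has 1 probe, so no other probe could be tried, and the short score lacked TAGLN.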
